A study of Mus musculus with 4 samples.

Results

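The genes described here encode the machinery that cuts and rejoins antigen receptor genes in developing lymphocytes, together with the general enzymes that reseal broken DNA ends. They were chosen by name, as the rows whose gene symbol was Rag1, Rag2, Dntt, Xrcc5, Xrcc6, Prkdc, Dclre1c, Xrcc4, Lig4 or Nhej1, which gave 10 genes of 12417 kept in the tables. RNA had been sequenced from 4 pooled libraries of C57BL/6 mouse bone marrow, with 1 library per group. The libraries are called by their labels, WT-HSC and WT-CLP for wildtype and KO-HSC and KO-CLP for GRK6 knockout (GRK6-/-) mice. HSC were sorted as Lin-c-kit+sca-1+ cells and CLP as the same cells that also carried Il-7Ra, and nothing in the label of the HSC gate removes Il-7Ra+ cells. The knockout is described in the study as a deletion of exons common to the splice forms of Grk6 in a mouse strain kept by breeding, so it is not limited to blood cells, and WT mice were littermates. The labels name no agent given to the mice and no age. Each library was a pool of amplified cDNA from 13 to 15 picked cells of 3 to 4 mice, amplified by 20 and then 10 cycles of PCR. With 1 library per group, no difference has a replicate check, and the spread between mice or between pools is unknown. Levels are given as FPKM, that is fragments per kilobase of transcript and scaled to the number of mapped fragments. Oligo(dT) priming may leave long transcripts covered in part only, so ratios between genes of unequal length are approximate.

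The targeted gene did not separate the libraries in the direction of their labels. Grk6 was listed at 42.69 FPKM in WT-HSC, 89.4 in KO-HSC, 26.92 in WT-CLP and 57.58 in KO-CLP. It was thus higher in the library labelled KO in both populations, by 1.05 and 1.07 in log2(FPKM + 1). A single value per gene does not show which exons were read, and exons outside the deleted ones can still give fragments, so this value does not check the labels. Every difference between WT and KO below is therefore one between libraries labelled so.

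V(D)J recombination starts when the RAG1 and RAG2 proteins, which act only as a complex, cut DNA at the borders of V, D and J gene segments. Ku (the pair of KU70 and KU80) then binds the broken ends and recruits DNA-PKcs, the kinase that activates the nuclease Artemis to open the hairpin ends. TdT adds nucleotides without a template, and XRCC4, DNA ligase IV and XLF seal the joint. RAG and TdT act in lymphoid precursors, whereas the end joining proteins work in all cells that repair double-strand breaks, and mice lacking one of several of them have few mature lymphocytes. DNA-PKcs is also the protein whose interaction with GRK6 was followed in the study that produced these libraries.

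Of the 10 genes, 5 had a value in all 4 libraries. A value was listed for 8 genes in WT-HSC, 9 in KO-HSC, 8 in WT-CLP and 8 in KO-CLP. A gene without a row is described as such, since the tables do not say whether it had no fragments or was left out for another reason. For differences, a missing row was set to 0. None of the 10 genes shared a row with another gene.

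Rag1 and Rag2 lie beside each other on chromosome 2. In the mm9 annotation Rag1 (Entrez Gene 19373) spans 101478439 to 101489658 on the minus strand with 2 exons, and Rag2 (Entrez Gene 19374) spans 101464875 to 101472685 on the plus strand with 3 exons in its longest transcript. They are transcribed toward each other and 5753 bp separate their ends. Dntt (Entrez Gene 21673), which encodes TdT, lies on chromosome 19 from 41103765 to 41134013 on the plus strand. Promoters of these 3 genes are shown because their RNA differed most between WT-HSC and WT-CLP, and that of Xrcc6, the KU70 gene with the highest level among the end joining genes, is shown for contrast. RefSeq (GRCm38.p6) supplied the 250 bases before each gene start, which are the windows chr2:101649533-101649782 on the minus strand for Rag1, chr2:101624462-101624711 on the plus strand for Rag2, chr19:41029025-41029274 on the plus strand for Dntt and chr15:82016119-82016368 on the plus strand for Xrcc6. Capitals mark CANNTG (the E-box read by E proteins such as TCF3) and CCAAT on either strand (the box read by NF-Y), which do not overlap each other in these windows.
Rag1: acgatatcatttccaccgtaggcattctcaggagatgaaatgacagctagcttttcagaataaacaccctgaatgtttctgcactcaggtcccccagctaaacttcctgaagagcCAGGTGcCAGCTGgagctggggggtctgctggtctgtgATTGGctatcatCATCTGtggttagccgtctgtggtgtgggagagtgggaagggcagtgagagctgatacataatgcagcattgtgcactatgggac
Rag2: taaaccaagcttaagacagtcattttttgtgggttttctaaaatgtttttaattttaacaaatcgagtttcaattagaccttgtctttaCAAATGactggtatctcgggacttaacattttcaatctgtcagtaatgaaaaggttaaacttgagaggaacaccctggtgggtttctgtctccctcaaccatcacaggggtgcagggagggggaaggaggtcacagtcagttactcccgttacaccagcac
Dntt: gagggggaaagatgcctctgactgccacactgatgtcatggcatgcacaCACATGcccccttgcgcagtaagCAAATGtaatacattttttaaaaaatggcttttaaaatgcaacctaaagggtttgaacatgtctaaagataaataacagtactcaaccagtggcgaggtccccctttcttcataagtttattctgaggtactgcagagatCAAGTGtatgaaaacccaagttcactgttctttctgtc
Xrcc6: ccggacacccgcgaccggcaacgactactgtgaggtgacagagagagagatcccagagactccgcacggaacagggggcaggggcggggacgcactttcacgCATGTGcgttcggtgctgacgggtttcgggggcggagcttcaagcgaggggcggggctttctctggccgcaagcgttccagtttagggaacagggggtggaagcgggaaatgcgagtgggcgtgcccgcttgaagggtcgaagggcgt

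The 3 lymphoid promoters held fewer CG dinucleotides than the median promoter, with 3 in Rag1, 3 in Rag2 and 2 in Dntt, against a median of 6 and quartiles of 2 and 16 over 32841 mouse promoters. Of all promoters, 29.0% had fewer than Rag1 and Rag2 and 18.8% fewer than Dntt. Promoters of Xrcc6 with 25, Xrcc4 with 26 and both starts of Lig4 with 27 and 28 held many more, each above at least 89.3% of all promoters. Xrcc5 had 5, Dclre1c 8 and Nhej1 9, close to the middle. An E-box was found in 66.2% of all promoters and is therefore common, and Rag1 and Dntt held 3 each and Rag2 held 1. Among the end joining genes, Xrcc5 and Dclre1c held 2 each, Xrcc6, Nhej1 and both starts of Lig4 held 1 each, and Xrcc4 held 0. CCAAT was present in 33.9% of promoters, among them Rag1 with 1, Xrcc5 with 1 and Dclre1c with 3. No TATAAA was found in the windows of the 9 genes matched, where 12.4% of all promoters held it. Such matches describe the letters only.

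Dntt was the highest of the 10 genes in every library. Its level was 113.8 FPKM in WT-HSC, 92.32 in KO-HSC, 931.3 in WT-CLP and 562.1 in KO-CLP, which placed it above 93.0%, 91.9%, 99.2% and 98.8% of the genes listed in those libraries. The CLP levels were thus far above the HSC levels in both genotypes, and the TdT gene was listed in both HSC libraries too. Dntt in CLP was 8.18 times its HSC level between the WT libraries and 6.09 times between the KO libraries. KO-HSC stood at 0.811 of WT-HSC and KO-CLP at 0.604 of WT-CLP, so these differences were smaller.

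Rag1 had no row in either HSC library. In CLP it was listed at 23.03 FPKM in WT-CLP and at 2.467 in KO-CLP, so that WT-CLP stood at 9.34 times KO-CLP. The gene whose product performs the cut was therefore seen in both CLP libraries and in neither HSC library. At the depth estimated from the lowest values of each table, the CLP levels corresponded to about 675 and 46 fragments, with exact Poisson 95% intervals of 21.3 to 24.8 and of 1.79 to 3.27 FPKM. Such intervals cover the counting of fragments only, not the differences between cells, mice or pools, and PCR copies of 1 molecule are counted as several fragments.

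Rag2 had its main signal in a single library. It was listed at 94.52 FPKM in WT-CLP, or about 1435 fragments, and at 0.3073 in KO-HSC, or about 4 fragments. In WT-HSC and in KO-CLP it had no row. Among the 881 genes with at least the Rag2 level in WT-CLP, many of them possibly far above it, 12 or 1.36% had no row in KO-CLP, Rag2 included. RAG2 has no known activity without RAG1, and the levels of the pair were unequal, with Rag2 at 4.1 times Rag1 in WT-CLP and Rag1 alone listed in KO-CLP. In the annotation a gene on the minus strand, B230118H07Rik, shares 208 exonic bp with Rag2 and 80 with Rag1. It was listed at 14.49 FPKM in WT-HSC, 5.5 in KO-HSC, 2.48 in WT-CLP and 1.466 in KO-CLP, an order unlike that of either RAG gene.

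**Figure D1:**
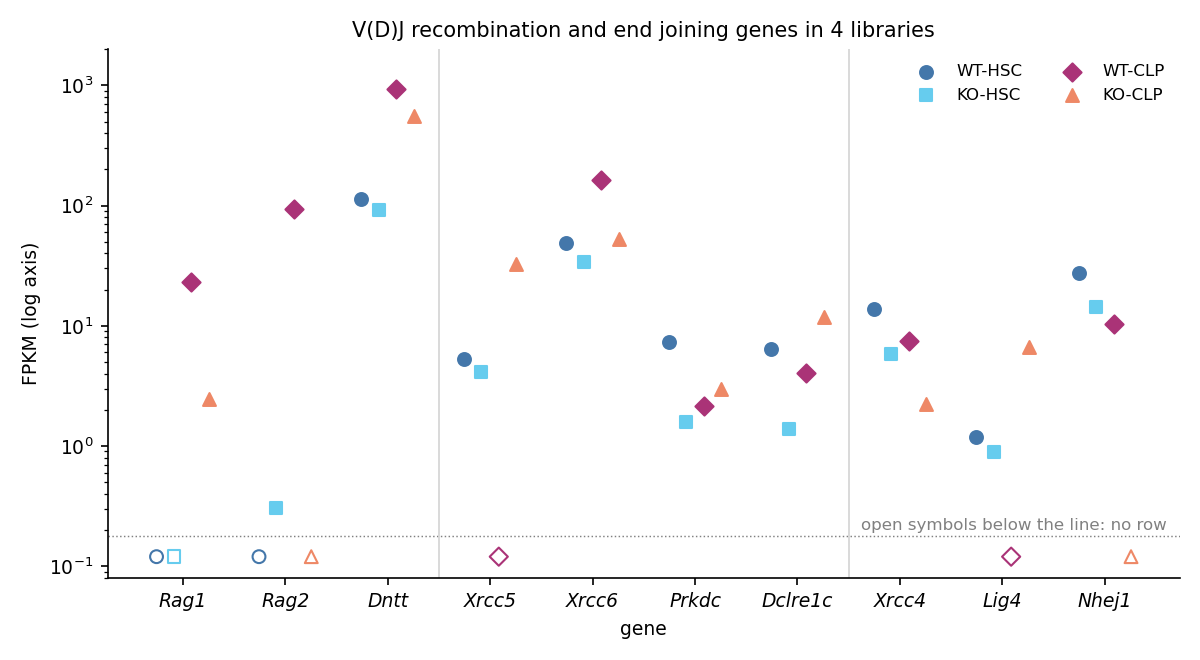
Level of each of the 10 genes in FPKM on a log axis, with 1 filled symbol per library, open symbols below the dotted line where a library had no row, and vertical lines between the recombinase and TdT, the Ku, DNA-PKcs and Artemis, and the ligation genes. Dntt is highest in all 4 libraries, from 92.32 to 931.3 FPKM, and Rag2 reaches 94.52 FPKM in WT-CLP only.

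The genes encoding Ku, which binds ends as an obligate pair, did not have matching levels. Xrcc6 (KU70) was listed at 48.94 FPKM in WT-HSC, 34.02 in KO-HSC, 164 in WT-CLP and 52.81 in KO-CLP. Xrcc5 (KU80) was listed at 5.255 in WT-HSC, 4.158 in KO-HSC and 32.51 in KO-CLP, and had no row in WT-CLP. The highest Xrcc6 level thus fell in the library where Xrcc5 was missing. Per length, Xrcc6 was 9.31 times Xrcc5 in WT-HSC, 8.18 times in KO-HSC and 1.62 times in KO-CLP. Of 2571 genes with at least the Xrcc5 level in KO-CLP, many of them possibly far above it, 67 or 2.61% had no row in WT-CLP. The 2 genes lie on different chromosomes, Xrcc5 on chromosome 1 from 72353995 to 72441526 and Xrcc6 on chromosome 15 from 81818265 to 81870515. In Xrcc6, 10.4% of the longest transcript overlaps exons of Pppde2 on the other strand, and unstranded reads there cannot be assigned.

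Prkdc, the gene of DNA-PKcs, was low in all libraries. It lies on chromosome 16 from 15637959 to 15842332 on the plus strand, with 86 exons and a transcript of 12674 bp. Its level was 7.328 FPKM in WT-HSC, 1.598 in KO-HSC, 2.156 in WT-CLP and 2.971 in KO-CLP. WT-HSC stood above the other libraries, and KO-HSC was lowest. WT-HSC was 4.59 times KO-HSC, with about 275 and 78 fragments and Poisson 95% intervals of 6.5 to 8.26 and 1.26 to 1.98 FPKM. KO-CLP was 1.38 times WT-CLP, and the intervals, 1.79 to 2.57 and 2.44 to 3.59, overlapped at their ends. A long transcript read from its 3' end by oligo(dT) priming may be covered in part only, which the files do not show.

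Dclre1c, the gene of Artemis on chromosome 2 (3341403 to 3381402), was listed at 6.425 FPKM in WT-HSC, 1.383 in KO-HSC, 4.021 in WT-CLP and 11.92 in KO-CLP. Here the labels WT and KO were ordered in opposite ways in the populations. WT-HSC stood at 4.65 times KO-HSC, and KO-CLP at 2.96 times WT-CLP. Neither pair of Poisson intervals overlapped, at 5.37 to 7.59 against 0.981 to 1.9 in HSC and 3.35 to 4.78 against 10.4 to 13.5 in CLP. As for Rag1, the intervals cover the counting of fragments only, not the spread between cells, mice or pools. Suv39h2, a gene of the other strand that shares 5.0% of the longest Dclre1c transcript, was at 15.48 and 1.996 FPKM in WT-HSC and KO-HSC and had no row in either CLP library.

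Among the ligation genes, Xrcc4, which encodes the scaffold of ligase IV (chromosome 13, 89913632 to 90229213), was listed at 13.67 FPKM in WT-HSC, 5.793 in KO-HSC, 7.426 in WT-CLP and 2.239 in KO-CLP. It was lower in the library labelled KO in both populations and lower in CLP than in HSC under both labels. WT-HSC was 2.36 times KO-HSC and WT-CLP 3.32 times KO-CLP. These Xrcc4 values rested on few fragments, from about 62 in WT-HSC to about 10 in KO-CLP. The Poisson intervals of KO-HSC and KO-CLP, 4.09 to 8.16 and 1.1 to 4.2 FPKM, overlapped at their ends. Lig4, the ligase itself (chromosome 8, 9970020 to 9977686), was listed at 1.18 FPKM in WT-HSC, 0.8855 in KO-HSC and 6.719 in KO-CLP, with no row in WT-CLP. The HSC values rested on about 14 fragments each, and their Poisson intervals of 0.634 to 1.95 and 0.484 to 1.49 overlapped. Whether they differ beyond counting error was not tested. Of 6412 genes with at least its KO-CLP level, many of them possibly far above it, 414 or 6.46% had no row in WT-CLP. Xrcc4 was 11.6 times Lig4 in WT-HSC, 6.54 times in KO-HSC and 0.333 times in KO-CLP.

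Nhej1, which encodes XLF (chromosome 1, 75013713 to 75093213), was listed at 27.69 FPKM in WT-HSC, 14.27 in KO-HSC and 10.28 in WT-CLP. It had no row in KO-CLP. Of 5310 genes with at least its WT-CLP level, many of them possibly far above it, 239 or 4.50% had no row in KO-CLP. It was the highest of the 3 ligation genes in each library in which it was listed. Its longest annotated coding transcript, of 1053 bp, is marked as incomplete at its start, so that its fragments could be estimated less well than those of the others.

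Every pool held a different set of gaps. Rag1 and Rag2 were missing in WT-HSC, Rag1 in KO-HSC, Xrcc5 and Lig4 in WT-CLP, and Rag2 and Nhej1 in KO-CLP. WT-CLP, with the highest levels of RAG and TdT genes, was the library without a row for KU80 and ligase IV. Genes that all cells use show how far a single library could depart. Of 25 such genes listed, 24 could be followed and all 24 had a row in every library, but Rab7, a GTPase of late endosomes, was at 100.9, 87.33 and 104.6 FPKM in WT-HSC, KO-HSC and WT-CLP and at 0.764 in KO-CLP. Of these 24 genes, 3 were at least 2-fold higher and 1 lower in KO-HSC than in WT-HSC, and 4 were higher and 5 lower in KO-CLP than in WT-CLP, fewer than the 37.4% and 50.0% of all genes past 2-fold.

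Between WT-HSC and KO-HSC, differences were small for most of the 10 genes, and KO-HSC was mostly the lower library. Of 9 genes with a value in at least 1 HSC library, 8 were lower in KO-HSC and 1 (Rag2, with about 4 fragments) was higher, where 48.2% of all 11624 genes were lower. A change of at least 2-fold, meaning a difference of at least 1 in log2(FPKM + 1), was reached by 3 of the 9, against 37.4% of all genes, so the count was near the background. All 3 were lower in KO-HSC, namely Prkdc by -1.68, Dclre1c by -1.64 and Xrcc4 by -1.11 in log2(FPKM + 1). Nhej1 with -0.91 and Xrcc6 with -0.51 did not reach it, nor did Dntt, Xrcc5 and Lig4 with -0.30, -0.28 and -0.21. The median difference of the 9 genes was -0.51, beside 0.05 over all genes.

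Between WT-CLP and KO-CLP the genes differed more and without a common direction. Of the 10 genes, 8 reached 2-fold, against 50.0% of 11191 genes, with 3 higher and 5 lower in KO-CLP. Lower were Rag1 by -2.79, Xrcc6 by -1.62 and Xrcc4 by -1.38 in log2(FPKM + 1), and Rag2 and Nhej1, which had no row in KO-CLP. Higher were Dclre1c by 1.36, and Xrcc5 and Lig4, which had no row in WT-CLP. Dntt with -0.73 and Prkdc with 0.33 stayed under 2-fold. Thus 4 of the 8 rested on a row missing from 1 library, and of the 6 genes with a row in both, 4 reached 2-fold, where 45.0% of such genes did. The median over the 10 genes was -1.05, beside 0.05 over all genes.

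**Figure D2:**
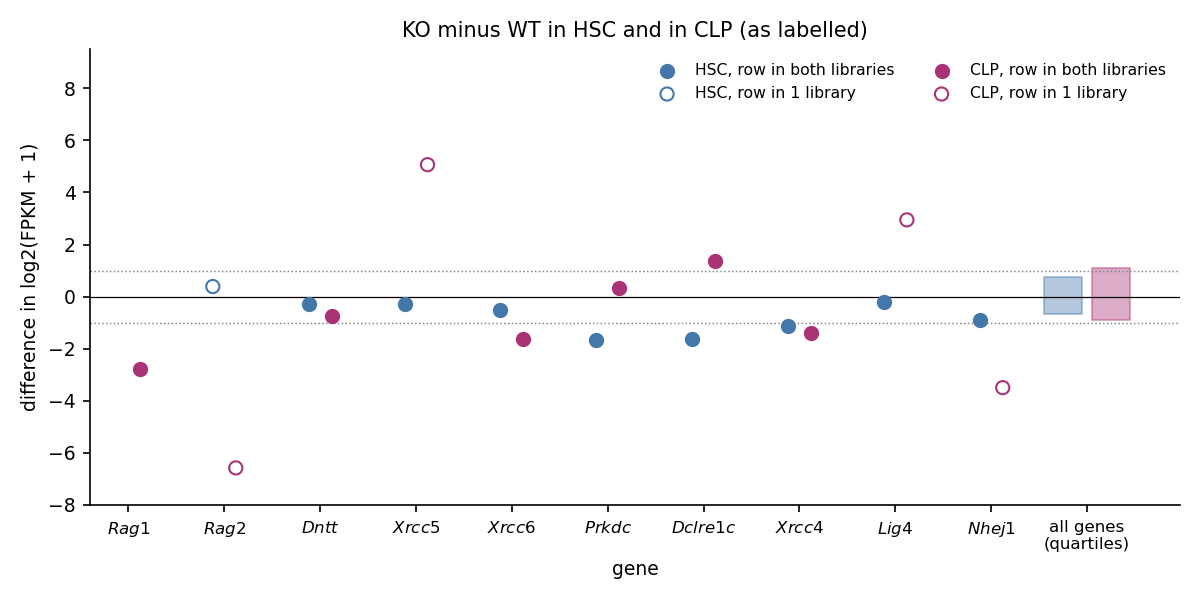
Difference between the libraries labelled KO and WT in log2(FPKM + 1) for each gene in HSC and in CLP, with open circles where 1 of both libraries had no row (set to 0), dotted lines at 2-fold and boxes for the middle 50% of all genes. In HSC all points lie between -1.68 and 0.39, and in CLP they run from -6.58 for Rag2 to 5.07 for Xrcc5.

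Marker genes of several other cell types were higher in KO-CLP than in WT-CLP. The counts of markers below stand beside all 11191 genes with a value in CLP. Of these, 2973 were at least 2-fold higher and 2620 lower in KO-CLP, or 50.0% past 2-fold. Erythroid markers summed to 38.12 FPKM in WT-HSC, 746.4 in KO-HSC, 19.78 in WT-CLP and 17530 in KO-CLP, of which the globin gene Hba-a2 made up 17220. All 6 of the 9 listed that could be followed were at least 2-fold higher there than in WT-CLP. The same 6 were at least 2-fold higher in KO-HSC than in WT-HSC, as were 2249 of all 11624 genes with a value in HSC. Early lymphoid and B lineage markers, 12 of 14 with rows in both CLP libraries, summed to 2159 FPKM in WT-CLP and 3084 in KO-CLP, with 7 at least 2-fold higher and 1 lower in KO-CLP. Plasmacytoid dendritic cell markers summed to 217.9 FPKM in WT-CLP and 785.4 in KO-CLP, with 3 of 6 at least 2-fold higher in KO-CLP (Siglech, Bst2 and Ccr9) and Tcf4, Irf8 and Irf7 under 2-fold. Siglech, their defining surface lectin, was at 10.03 and 277.9 FPKM. Megakaryocyte markers summed to 149.6 FPKM in WT-HSC, 14.66 in KO-HSC, 13.52 in WT-CLP and 115.5 in KO-CLP, and 3 of the 4 with a value in CLP were at least 2-fold higher in KO-CLP. Myeloid markers, with all 10 listed found, were high in all 4 libraries, between 1.35% and 2.95% of all FPKM. In KO-CLP 3 of the 10 were at least 2-fold lower than in WT-CLP, namely S100a9, Csf1r and Ltf, and 1, Ngp, was higher. S100a9 was at 268.8 FPKM in WT-CLP with no row in KO-CLP, and Ngp at 44.7 FPKM in KO-CLP with no row in WT-CLP. Whether any of this had a part in the lower Rag1 and Rag2 or the higher Xrcc5 and Lig4 of KO-CLP was not tested. Fewer cells with a transcript and less of it in each cell cannot be told apart in pooled libraries.

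Compared between the sorted populations, the recombinase and TdT genes were the clearest group under the WT label only. Between the WT libraries, all 3 were at least 2-fold higher in CLP, where 21.8% of 11202 genes were higher to that extent. Between the KO libraries 2 of the 3 were, Dntt by 2.59 in log2(FPKM + 1) and Rag1, which had no row in HSC, where 22.3% of 11708 genes were higher to that extent. Rag2 was listed at 0.3073 FPKM in HSC and not at all in CLP. The median of the 3 between the KO libraries was 1.79 in log2(FPKM + 1), beside 1.53 for the Ku, DNA-PKcs and Artemis genes. Il7r, the receptor chain used in the gate, had no row in WT-HSC, 1.083 FPKM in KO-HSC, 120.1 in WT-CLP and 75.15 in KO-CLP. Of 9 stem cell and sort markers with a row, 2 were at least 2-fold lower and 1 higher in WT-CLP than in WT-HSC. Between KO-HSC and KO-CLP, 1 was lower and 3 higher in KO-CLP. Of all genes, 46.5% and 45.6% were past 2-fold in these comparisons, so the marker counts were not above the background.

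The end joining genes had no shared direction between populations. Counting all 10 genes, 8 reached 2-fold between WT-HSC and WT-CLP, against 46.5% of all genes, with 4 higher and 4 lower in CLP. The 4 lower were Prkdc by -1.40 and Nhej1 by -1.35 in log2(FPKM + 1), and Xrcc5 and Lig4, which had no row in WT-CLP. Between the KO libraries 7 reached 2-fold, against 45.6% of 11708 genes, 5 of them higher in CLP. Among these, Dclre1c was 8.62 times, Xrcc5 7.82 times and Lig4 7.59 times its HSC level. Xrcc4 was lower by -1.07, with about 10 fragments in KO-CLP. Xrcc4 and Nhej1 were lower in CLP under both labels, and Xrcc6 was higher under both, by 1.72 between the WT and 0.62 between the KO libraries. As all these comparisons use the same 4 libraries, they are not independent of each other.

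**Figure D3:**
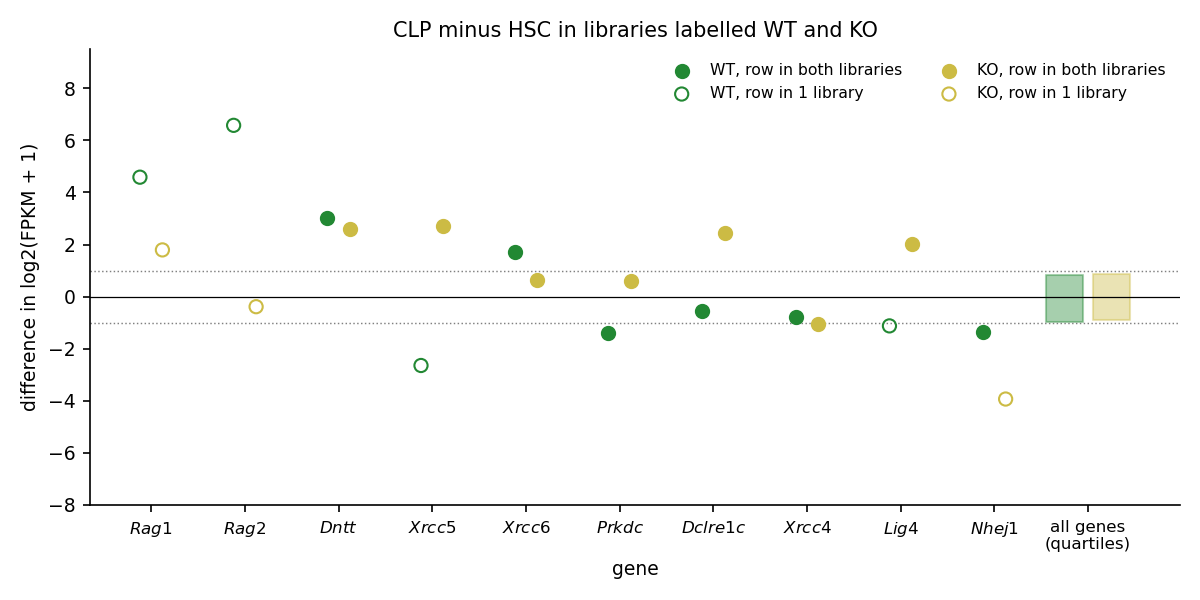
Difference between CLP and HSC in log2(FPKM + 1) for each gene in the libraries labelled WT and KO, with open circles where 1 of both libraries had no row (set to 0), dotted lines at 2-fold and boxes for the middle 50% of all genes. Rag1 and Dntt are above 1 under both labels, and Rag2, Xrcc5, Prkdc, Dclre1c and Lig4 lie on opposite sides of 0.

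Other genes that act beside the 10 in cutting and joining were followed as a list of 23, of which 22 had a row. In HSC, 6 were at least 2-fold higher and 1 lower in KO-HSC, and in CLP 3 were higher and 7 lower, with medians of 0.36 and -0.33 in log2(FPKM + 1). Past 2-fold were thus 7 of 22 in HSC, against 37.4% of all genes, and 10 of 22 in CLP, against 50.0%, which is not above the background. Polm, a polymerase that fills gaps at light chain joints, was at 0.2394, 2.249 and 11.41 FPKM in WT-HSC, KO-HSC and KO-CLP and had no row in WT-CLP. Nbn, of the complex that senses broken ends, was at 5.535, 11.54 and 11.19 FPKM in the same 3 libraries and also had no row in WT-CLP. Atm, the kinase that stabilizes the cut ends, was at 9.793 FPKM in WT-HSC, 13.04 in KO-HSC, 3.585 in WT-CLP and 44.32 in KO-CLP. Polm, Nbn and Atm were thus missing or lowest in WT-CLP, as Xrcc5 and Lig4 were. They are the 3 of the 22 that were at least 2-fold higher in KO-CLP, and the 7 that were lower go the other way. Aplf, a scaffold that binds Ku, had 2.591 FPKM in KO-HSC and 10.99 in WT-CLP with no row in the other libraries. Tdp1, which clears blocked 3' ends, was at 8.76, 15.55, 11.05 and 0.7259 FPKM in WT-HSC, KO-HSC, WT-CLP and KO-CLP, and Poll, another gap-filling polymerase, at 21.8, 11.46, 2.504 and 4.263. Hmgb1 and Hmgb2, the DNA-bending partners of RAG, varied least among the abundant ones, from 75.24 to 144.4 and from 82.2 to 169.3 FPKM.

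Alternative end joining, the slower route that uses short homologies and other ligases, was represented by 8 genes. In CLP 5 were at least 2-fold higher and 1 lower in KO-CLP, with a median of 1.48, and in HSC 3 were higher and 2 lower, with a median of 0.04. Of all genes, 50.0% in CLP and 37.4% in HSC were past 2-fold in either direction. Lig1, the replicative ligase, was at 57.51 FPKM in WT-HSC, 137.6 in KO-HSC, 12.94 in WT-CLP and 117.8 in KO-CLP. Parp2, a sensor of nicks, was at 194.2, 79.37, 26.43 and 103.3 in that order, and Parp1, its larger relative, at 26, 123.5, 59.94 and 65.43. Xrcc1, a scaffold of single-strand repair, was at 113 FPKM in WT-HSC and between 20.9 and 41.72 in the other libraries. Lig3, its ligase, had 3.639, 3.276 and 3.032 FPKM in WT-HSC, KO-HSC and KO-CLP and, like Lig4, no row in WT-CLP. Polq, the polymerase of this route, was low, at 0.2181 FPKM in WT-HSC, 1.473 in KO-HSC, 3.347 in WT-CLP and 0.9037 in KO-CLP. It was the 1 gene that was at least 2-fold lower in KO-CLP. WT-CLP thus had the lowest Lig1, Parp2 and Fen1 levels of the 4 libraries but the highest Polq level. Fen1, the flap nuclease, was at 35.11 FPKM there and at least 75.23 elsewhere.

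**Figure D4:**
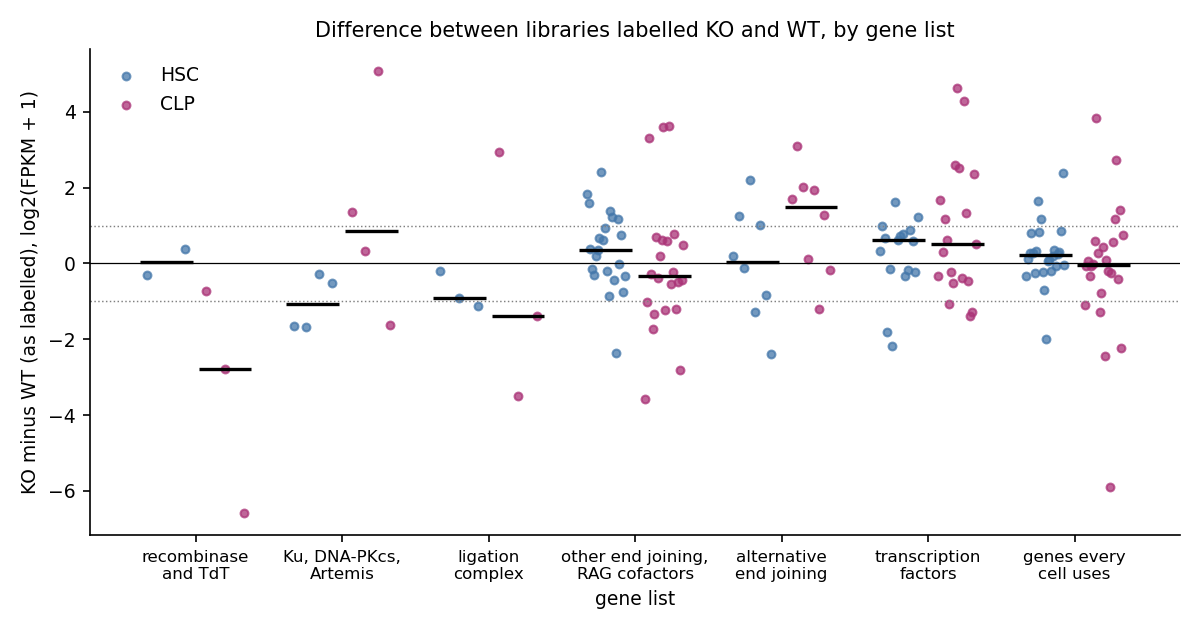
Difference between the libraries labelled KO and WT in log2(FPKM + 1) for every gene of 7 lists in HSC and in CLP, 1 point per gene, with a black bar at each median and dotted lines at 2-fold. The bars for alternative end joining lie at 0.04 in HSC and 1.48 in CLP, and the genes every cell uses have medians of 0.22 and -0.04.

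Of 21 transcription factors known to act on the RAG or TdT loci, 19 had a row. Ebf1, which commits cells to the B lineage, had no row in HSC and was at 24.99 FPKM in WT-CLP and 82.05 in KO-CLP. Foxo1, an activator of both RAG genes, was at 9.668 FPKM in WT-HSC, 2.02 in KO-HSC, 14.89 in WT-CLP and 23.39 in KO-CLP. Id2, which blocks E proteins, was at 12.93, 20.47, 2.772 and 92.16 FPKM in the same order. Id3, a relative with the same action, had no row in WT-HSC and was at 0.6424 FPKM in KO-HSC, 12.32 in WT-CLP and 75.17 in KO-CLP. Lef1, an activator of early B cell genes, was at 18.58 FPKM in KO-CLP with no row elsewhere. Gata3, a factor of T cell precursors, was highest in WT-HSC at 10.83 FPKM, with 1.627 in KO-HSC, 0.4265 in WT-CLP and no row in KO-CLP. In all, 8 of the 19 were at least 2-fold higher and 3 lower in KO-CLP than in WT-CLP, the 3 lower being Satb1 by -1.39, Sfpi1 by -1.27 and Foxo3 by -1.08 in log2(FPKM + 1), and in HSC 3 of 16 were higher and 2 lower, shares near the 50.0% and 37.4% of all genes past 2-fold in CLP and HSC. Pax5 and Ikzf3 had no row in any library.

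The rearranging loci themselves are not among the genes followed. Of 25 antigen receptor genes listed, 7 had a row, and those were the signalling chains and the joining chain. Cd79a, the signal chain of the B cell receptor, had no row in WT-HSC and was at 0.2159 FPKM in KO-HSC, 32.13 in WT-CLP and 159.9 in KO-CLP. The other 18 names, of immunoglobulin and T cell receptor genes, had no row, so products of recombination are not analysed here. Of 5 genes with a value in CLP, 3 were at least 2-fold higher in KO-CLP than in WT-CLP, and of 6 in HSC 1 was lower in KO-HSC, beside 50.0% and 37.4% of all genes past 2-fold in either direction. Cd3g and Cd3d, chains of the T cell receptor complex, were listed in HSC at 7.933 to 12.06 and 5.424 to 9.045 FPKM. In CLP Cd3g was at 0.2567 FPKM in WT-CLP and 0.4031 in KO-CLP and Cd3d had no row.

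Near the RAG genes, Traf6 was at 26 FPKM in WT-HSC, 5.067 in KO-HSC, 1.914 in WT-CLP and 5.689 in KO-CLP, and Commd9 at 6.927, 41.85, 4.673 and 30.75. Prr5l was listed in WT-HSC alone, at 0.0826 FPKM. None of these neighbours was highest in WT-CLP as the RAG genes were.

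Genes with the pattern most like that of each lymphoid gene were sought by the distance of log2(FPKM + 1) over the 4 libraries among 11230 genes. The nearest to Rag2 were Egf at a distance of 0.33, Mir221 at 0.40, Tcf15 at 0.51, Mxd4 at 0.57 and Pnp2 at 0.81, with 72.07 to 155.1 FPKM in WT-CLP and no row in KO-CLP. The nearest to Rag1 were Bend7 at 0.57, Galc at 0.65, Cd163 at 0.65, 4930486L24Rik at 0.67 and AW046200 at 0.79. For Dntt the nearest were farther away, from Pkm2 at 1.44 and Lgals1 at 1.56 to Tmsb10, Shisa5 and Ccnd3, the last at 2.04. A like pattern over 4 libraries is a description of these pools.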

How the data were processed

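RNA of sorted HSC and CLP was measured in 4 pooled libraries, 1 per label and population. Reads had been mapped by the authors to the mouse build mm9, for which the submitters' processing notes name TopHat 1.4.0, and the deposited values are FPKM, 1 per gene row. The study's methods name the Tuxedo suite, and other versions and settings are not given in the sources used here. Files held 10056 to 11060 rows. The values keep no read numbers. Depth was therefore estimated from steps in the lowest FPKM of genes with a single transcript, at about 4430000 fragments for WT-CLP, 3870000 for KO-HSC, 2960000 for WT-HSC and 2840000 for KO-CLP. Between 70.6% and 81.4% of the low values lay near 1, 2 or 3 fragments, and the estimates may be too low, since they are below the number of reads the study states per library. All fragment numbers and intervals rest on them. Fragments of a gene were taken from its longest coding transcript in GENCODE vM1 on mm9, whose genes overlapped 99.5% to 99.6% of the loci in the files.

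Values with the same symbol were summed, and 333 genes and joint names were left out. Differences were taken as log2 of FPKM + 1, which understates changes of low genes. With 1 library per group no test was made, and genes with a difference of at least 2-fold were counted beside all genes. How close the depth estimate comes to the true depth of these libraries was not tested. Promoters came from RefSeq, where 9 of the 10 genes matched. Alternatives were a pseudocount of 0.1, a stricter limit, filters on low or missing values, rescaling, the highest row per symbol and the use of joint rows. Members, lists, motifs and alternatives were chosen with earlier results of these data known. Named were all 10 genes, up to 6 genes of each list by their largest difference in any comparison, and the 5 nearest genes of Rag1, Rag2 and Dntt. Hmgb1, Hmgb2, Fen1 and the marker genes were named after their values were seen. Computations used matplotlib 3.10.9, scipy 1.17.1, pandas 2.3.3, numpy 2.4.6 and Python 3.11.15.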

Additional observations from a re-analysis of the deposited data

Results flagged for a closer look

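In 5 of the 9 genes with a difference between the libraries labelled WT and KO in both populations, the sign of the difference in CLP was opposite to that in HSC, and 50.0% of 10398 genes had opposite signs. These differences between populations were not tested, since each group has 1 library. All values are on the log2(FPKM + 1) scale with a missing row set to 0, and give the KO minus WT difference in CLP less that in HSC. For Dclre1c it was 3.00, from -1.64 in HSC and 1.36 in CLP, and this was the only gene of the 5 past 2-fold in both populations. For Prkdc it was 2.01, from -1.68 and 0.33. For Xrcc5 it was 5.34 and for Lig4 3.16, both with no row in WT-CLP. For Rag2 it was -6.96, with about 4 fragments behind the HSC difference and no row in KO-CLP. In HSC the Poisson intervals of the libraries overlapped for Xrcc5 and Lig4, as they did at their ends in CLP for Prkdc. These intervals rest on the estimated depth, and whether those differences exceed counting error was not tested.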

How the results depend on the processing

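Every single-gene direction past 2-fold was kept under the pseudocount of 0.1, rescaling, the highest row per symbol and the filter on low FPKM, and 152 of 154 single-gene values under these settings stayed on their side of 2-fold. Both exceptions were Rag2 with a pseudocount of 0.1, at 2.03 in HSC and -2.03 for CLP against HSC between the KO libraries, where it rests on about 4 fragments. The number kept says little, since most of these settings could hardly change a value. The highest row per symbol left the values of the 10 genes unchanged, the filter only removes genes, and rescaling moved values little. Requiring an absolute log2 difference of 2 left 0 of 9 genes in HSC (12.4% of all genes), 5 of 10 in CLP (24.8%) and 4 of 10 between WT-HSC and WT-CLP (20.5%). With rows required in both libraries, 4 of 6 genes passed 2-fold in CLP (45.0% of all genes), 4 of 6 between WT-HSC and WT-CLP (42.9%), 3 of 8 in HSC (34.7%) and 5 of 7 between the KO libraries (42.1%). That setting moved the median of the members to -0.711 in HSC and 2.033 for CLP against HSC between the KO libraries, and the filter of 1 FPKM moved them to -0.711 and 1.794, as fewer genes were left. With a pseudocount of 0.1 the median was -1.181 between WT-CLP and KO-CLP and 1.730 for CLP against HSC between the KO libraries. Rescaling shifted differences by at most 0.0347. No library could be left out, since each comparison has 1 library per group, and no paired analysis was possible because the labels give no replicate numbers. Levels under about 3 fragments, or 1 fragment near 0.113 to 0.176 FPKM in a transcript of 2 kb, cannot be told from none.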
